A study of Mus musculus with 26 samples.

Results

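Tnf, Il6 and Il10 encode the cytokines tumour necrosis factor, interleukin 6 and interleukin 10, and Tnfrsf1a, Tnfrsf1b and Il10ra encode receptor chains that bind the first and the last of them. These 6 genes were taken by symbol from a table of 55487 Ensembl genes, with the symbols of GENCODE M21 on mouse genome build GRCm38, and all 6 were found with 1 identifier each. The libraries are bulk RNA-seq of mouse lung macrophages of 2 labelled cell types, BM-derived macrophages (written BM) and resident alveolar macrophages (written AM), and the study set one against the other through the days after a lung challenge. LPS is lipopolysaccharide, a wall component of Gram-negative bacteria that triggers inflammation when it reaches the airway.

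Day 0 was sampled in AM alone (n = 3), without LPS. After LPS into the trachea there were BM day 1 (n = 5) and AM day 1 (n = 4), BM day 3 (n = 4) and AM day 3 (n = 3), and BM day 7 (n = 3) and AM day 7 (n = 4), 26 libraries in all. The labels give no strain, sex, genotype or sorting gate, and for age they hold only the word Young in the descriptions of the AM day 0 libraries. BM at day 0 and a vehicle group were not analysed here. The labels do not say that replicates came from separate mice, so each p-value measures the spread between these libraries, which may be technical in part.

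Tumour necrosis factor is an early signal of macrophages that meet bacterial products. It acts through receptor 1, the product of Tnfrsf1a, which carries a death domain and is found on most cell types, and through receptor 2, the product of Tnfrsf1b, which lacks a death domain and is found mainly on immune and endothelial cells. Interleukin 6 signals through Il6ra and the shared chain Il6st to STAT3, and interleukin 10 through Il10ra and Il10rb to the same factor, where it restrains the output of inflammatory macrophages.

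The bases upstream of Tnf and Il6 are shown because these 2 ligand genes have the widest ranges of level among the abundant members, and both are textbook targets of NF-kB. The sequences are those of RefSeq on GRCm38.p6, 250 bases that end just before the annotated start, written along the strand of the gene. Capitals mark matches to 3 motifs searched on both strands: NF-kB as GGG, any 2 bases, then TTTCC, AP-1 as TGANTCA and C/EBP as TTNNGNAA. The Tnf window is chr17:35202008-35202257 on the minus strand, and the Il6 window is chr5:30012864-30013113 on the plus strand.
Tnf upstream: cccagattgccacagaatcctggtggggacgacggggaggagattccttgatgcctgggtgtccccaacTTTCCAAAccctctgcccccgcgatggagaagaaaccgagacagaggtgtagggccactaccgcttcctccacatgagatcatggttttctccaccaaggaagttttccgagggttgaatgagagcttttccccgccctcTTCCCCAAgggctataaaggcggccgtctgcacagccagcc
Il6 upstream: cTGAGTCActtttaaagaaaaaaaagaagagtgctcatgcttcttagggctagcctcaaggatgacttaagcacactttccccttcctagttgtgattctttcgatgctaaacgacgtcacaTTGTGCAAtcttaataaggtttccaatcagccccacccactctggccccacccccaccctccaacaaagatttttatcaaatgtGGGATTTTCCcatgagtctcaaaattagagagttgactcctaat
In the Il6 window the AP-1 letters lie at -249 to -243 (the motif matches there on both strands), the C/EBP letters at -128 to -121 and the NF-kB letters at -44 to -35, counted from the annotated start. In the Tnf window the C/EBP letters lie at -181 to -174 and at -41 to -34, both on the opposite strand, and the chosen NF-kB and AP-1 letters do not occur. No match overlaps another. Among 32851 upstream windows of this length, 1.41% hold the NF-kB letters, 6.75% the AP-1 letters and 36.8% the C/EBP letters. The 250 bases upstream of Tnfrsf1b hold none of the 3 motifs, and neither do those of Tnfrsf1a, which contain part of an annotated exon and are not shown. A match is a run of letters and not evidence of binding.

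Levels are in CPM, the deposited read counts of a gene scaled to a common library total that includes the TMM factor of edgeR. These factors lay between 0.93 and 1.08. Library totals ran from 9176202 to 80816742 counts, with at least 35780951 in AM day 0 and at most 27513205 elsewhere. All 6 genes passed the filter on low counts. The summed CPM of 11 markers of alveolar macrophages was 1232 to 1860 at BM day 1, 2028 to 4343 at BM day 3 and 3145 to 15311 at BM day 7, against 16971 to 31801 over the AM libraries. In 2 of the 3 BM day 7 libraries (replicates 1 and 2) that sum reached 14519 and 15311, so these BM libraries carry much of the marker RNA that defines AM. The groups also differ in library set: AM day 0 and BM day 1 each have a library prefix of their own in the labels, and the other 5 groups share another one. Summed CPM of 4 Y-linked genes was 148 to 239 in AM days 0 and 1 and 192 to 223 in AM day 3, against 0.0995 to 4.02 in both groups of day 7 and 7.2 to 41.3 in BM day 1. BM day 3 was split, with 0.176 (replicate 1) and 0.0495 (replicate 2) against 176 (replicate 3) and 171 (replicate 4). AM day 0 replicate 1 held Xist RNA (146 CPM) beside its Y-linked RNA (148 CPM), and the labels say nothing of pooled mice. BM day 3 replicate 1 had the fewest genes detected (9126), followed by BM day 1 replicate 3 (9684). Its 11 markers of fibroblasts and endothelium summed to 27632 CPM, against at most 557 in every other library.

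**Figure D1:**
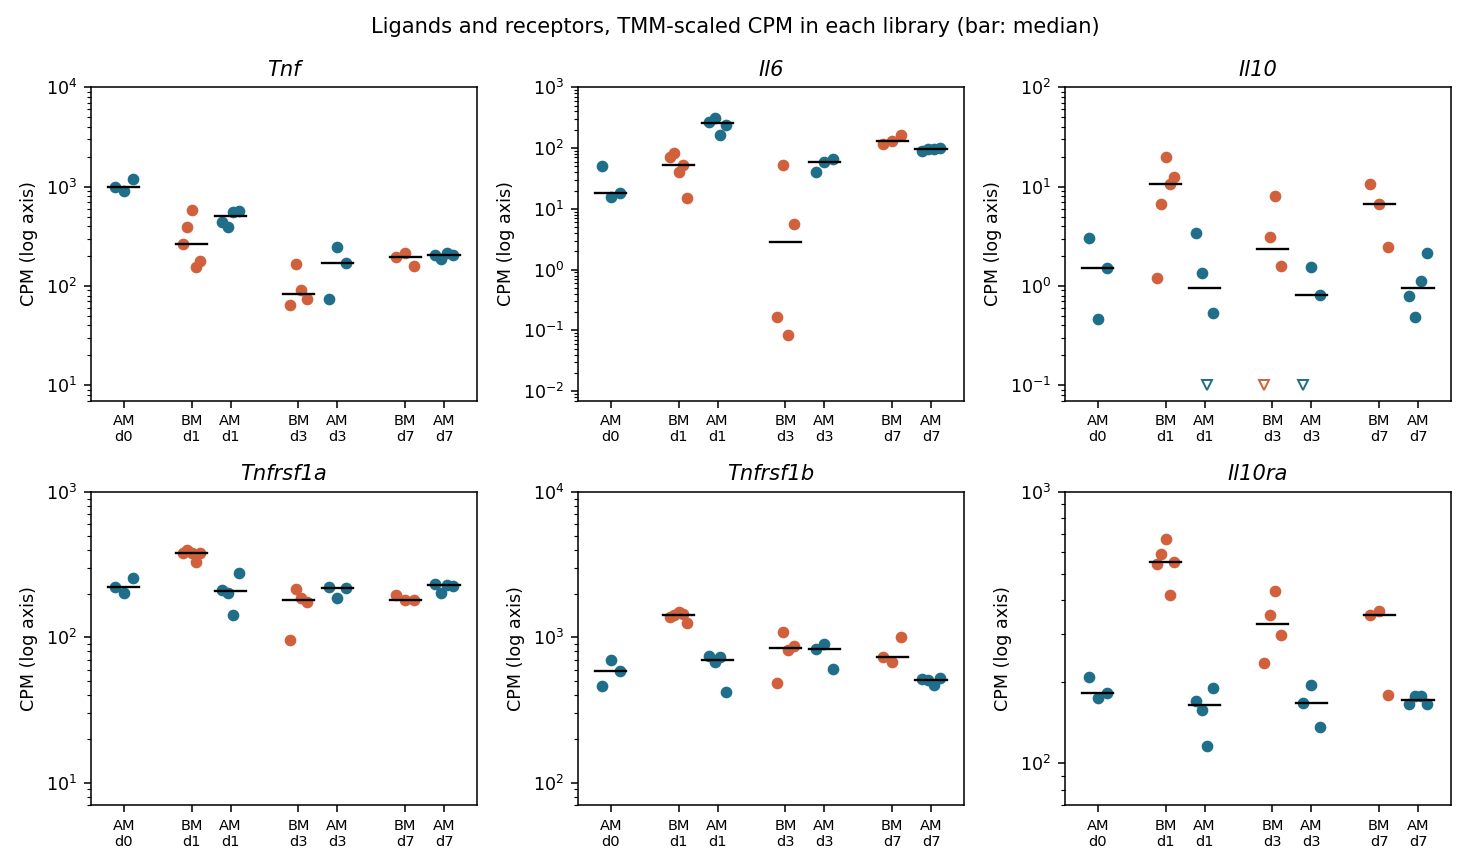
CPM of the 6 genes in each of the 26 libraries on log axes, with AM day 0 at the left and then BM (orange) beside AM (teal) at days 1, 3 and 7. Bars are group medians and open triangles are libraries with 0 counts. Tnf is highest at AM day 0, the receptor genes are highest at BM day 1, and Il6 spans 0.0855 to 52.5 CPM within BM day 3.

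Tnf, at chr17:35199381-35202007 on the minus strand, was the most abundant of the 6 genes per length in AM without LPS and lower in every group after LPS. Its level was 985, 898 and 1194 CPM in AM day 0 and 440.0, 396, 561 and 567 CPM in AM day 1. At AM day 3 it was 73.9, 249 and 169 CPM, and at AM day 7 it was 207, 189, 216 and 205 CPM. Every AM library after LPS lay below every AM day 0 library, and the spread was narrowest at day 7, where the SD was 11.5 around a mean of 204 CPM. Against AM day 0 the change was -2.64 ± 0.43 (log2 ± SE) at AM day 3 (edgeR, adjusted p = 0.00031) and -2.33 ± 0.38 at AM day 7 (edgeR, adjusted p = 0.0016), falls of 6.25-fold and 5.02-fold. At AM day 1 the mean was 491 ± 86.5 CPM, against 1026 ± 152 CPM in AM day 0 (SD, n = 4 and 3), and the change of -1.06 ± 0.37 had an adjusted p of 0.094 in edgeR. Without BM day 1 replicate 3, a library outside this comparison that adds to the shared spread, it was -1.09 (edgeR, adjusted p = 0.04; 0.0094 to 0.23 over the 36 alternatives). All 3 comparisons use the same day 0 libraries, which differ from the rest in prefix and depth, so LPS and library set cannot be told apart there. AM day 3 against AM day 1, within 1 prefix, gave -1.58 ± 0.39 (edgeR, adjusted p = 0.057) with no overlap between the groups, and it was called at -1.58 or -1.57 without BM day 1 replicate 3, 4 or 5 or BM day 3 replicate 1 or 2 (edgeR, adjusted p = 0.02, 0.032, 0.042, 0.043 and 0.034; 0.0014 to 0.3 over the 36 alternatives). In bulk RNA, less RNA per cell and a smaller share of cells that make it cannot be told apart.

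In BM, Tnf was 265.5, 389, 575, 156 and 180.3 CPM at day 1. It was 64.6, 165, 91.8 and 74.4 CPM at BM day 3, and 198, 213 and 159.9 CPM at BM day 7. The highest BM day 3 library lay above the lowest BM day 1 library, so the groups overlapped by 1 library, and the spread at BM day 1 was wide (SD 173 around a mean of 313 CPM). BM day 3 was lower than BM day 1 by -1.66 ± 0.35 on the log2 scale, a 3.16-fold fall (edgeR, adjusted p = 0.0014). BM and AM overlapped on each day, and none of the 3 differences of the same day was called: -0.65 ± 0.33 at day 1, -0.73 ± 0.37 at day 3 and -0.10 ± 0.38 at day 7 (edgeR, adjusted p = 0.14, 0.26 and 1). Without BM day 1 replicate 3, the library with 575 CPM, the day 1 difference was -0.94 (edgeR, adjusted p = 0.025; 0.013 to 0.32 over the 36 alternatives). BM day 7 against BM day 3 was 0.94 ± 0.37 (edgeR, adjusted p = 0.15), and 1.32 without BM day 3 replicate 2 (edgeR, adjusted p = 0.043; 0.043 to 0.32). Ordered by group mean, Tnf ran from AM day 0 through AM day 1, BM day 1, AM day 7, BM day 7 and AM day 3 to BM day 3, and only AM day 0 and AM day 1 were neighbours without overlap. A list of 10 genes of dissociation and stress (Fos, Jun, Dusp1 and others) also varied with the groups: its summed CPM was 8525 to 15967 at AM day 0, 4847 to 5459 at AM day 1, 3500 to 5045 at AM day 3 and 6475 to 8485 at AM day 7. In BM it was 6288 to 9999 at day 1, 2346 to 5743 at day 3 and 9131 to 12045 at day 7, and its part in the level of Tnf was not tested.

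Il6, at chr5:30013114-30019981 on the plus strand, had a different course from Tnf: it was low without LPS, highest in AM day 1, lowest in BM day 3 and between these in both cell types at day 7. It measured 51.4, 15.9 and 18.3 CPM in AM day 0 and 266, 307, 167 and 244 CPM in AM day 1. AM day 3 had 39.7, 59.4 and 65.3 CPM, and AM day 7 had 90.9, 96.5, 95.5 and 101 CPM. Every AM day 1 library exceeded every library of the other 6 groups, and the AM day 7 libraries exceeded all those of AM day 3 and AM day 0. The fitted difference of AM day 1 from AM day 0 was 3.11 ± 1.14 (log2), or 8.61-fold, with an adjusted p of 0.11 in edgeR. LPS and library set cannot be told apart in it. In the same libraries 12 neutrophil markers summed to 1051 to 2044 CPM in AM day 1, against 75.7 to 94.4 CPM in AM day 0, and 10 markers of monocytes and macrophages derived from them to 782 to 1352 CPM, against 175 to 236 CPM, and their part in the difference was not tested. AM day 3 against AM day 1 gave -2.17 ± 1.09 (edgeR, adjusted p = 0.43), and AM day 7 against AM day 0 gave 1.75 ± 1.07 (edgeR, adjusted p = 1), both without overlap.

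In BM the Il6 level was 71.0, 82.4, 40.2, 52.9 and 15.3 CPM at day 1 and 115, 131.5 and 164 CPM at day 7. At BM day 3 the libraries held 0.165, 52.5, 0.0855 and 5.53 CPM, from 2, 1096, 2 and 101 counts. Replicate 2 of BM day 3 thus stood far above the other 3, in which Il6 was at or near the limit of detection for 2. All 5 BM day 1 libraries lay below all 4 AM day 1 libraries, with a mean of 52.4 ± 26.4 CPM against 246 ± 58.8 CPM (SD), and the change was -2.23 ± 0.91, 4.70-fold lower (edgeR, adjusted p = 0.068). BM day 3 against AM day 3 gave -1.91 ± 1.02 (edgeR, adjusted p = 0.3), and BM day 3 against BM day 1 gave -1.84 ± 0.94 (edgeR, adjusted p = 0.16). BM day 7 against BM day 3 gave 3.22 ± 1.06 without overlap (edgeR, adjusted p = 0.091).

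The large SE of Il6 comes with the spread inside BM day 3, since all groups share 1 estimate of dispersion. Without BM day 3 replicate 2 the change at day 3 was -4.82 for BM against AM (edgeR, adjusted p = 0.0049; 0.0049 to 0.98 over the 36 alternatives) and the day 1 difference was called at -2.24 (edgeR, adjusted p = 0.013; 0.0014 to 0.14). Without the same library BM day 7 against BM day 3 was 6.13 (edgeR, adjusted p = 0.00072; 0.00072 to 0.69), BM day 3 against BM day 1 was -4.74 (edgeR, adjusted p = 0.00078; 0.00078 to 0.53) and the difference of AM day 1 from AM day 0 was 3.1 (edgeR, adjusted p = 0.022; 0.0032 to 0.34). Without BM day 3 replicate 1 or 3 the adjusted p of edgeR was 0.03 and 0.026 for BM day 1 against AM day 1, and 0.047 and 0.045 for AM day 1 against AM day 0. BM day 3 replicates 1 and 2 share a range of library numbers and a low Y-linked level, and they hold 0.165 and 52.5 CPM of Il6. They differ in markers of other cells, with 27632 and 243 CPM for fibroblasts and endothelium and 5369 and 1048 CPM for neutrophils. The part of these cells was not tested.

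Il10, at chr1:131019845-131024974 on the plus strand, was the scarcest of the 6 genes in every group, and its means were higher in each BM group than in any AM group. It was 1.19, 6.68, 19.8, 10.6 and 12.5 CPM in BM day 1, against 3.41, 1.36, 0 and 0.539 CPM in AM day 1. At day 3 it was 0, 3.11, 8.0 and 1.59 CPM in BM, against 0, 1.54 and 0.81 CPM in AM. At day 7 it was 10.6, 6.73 and 2.47 CPM in BM, against 0.8, 0.486, 1.12 and 2.13 CPM in AM. Without LPS, AM held 3.07, 0.47 and 1.5 CPM. The groups overlapped at days 1 and 3 and were apart at day 7, where the lowest BM library lay just above the highest AM library.

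A library with 0 counts allows a level of up to 0.312 CPM in AM day 1, 0.233 CPM in AM day 3 and 0.248 CPM in BM day 3, taking 3 counts as the limit, for counting error alone. The fitted differences of BM against AM were 2.92 ± 1.43 at day 1, 2.01 ± 1.58 at day 3 and 2.55 ± 1.5 at day 7 (log2 ± SE), and edgeR called none of them (adjusted p = 0.12, 0.55 and 0.83). Means were 10.1 ± 6.92 CPM in BM day 1 against 1.33 ± 1.5 CPM in AM day 1, and 6.61 ± 4.07 CPM in BM day 7 against 1.13 ± 0.713 CPM in AM day 7 (SD). BM day 3 against BM day 1 gave -1.67 ± 1.35 (edgeR, adjusted p = 0.41), BM day 7 against BM day 3 gave 1.05 ± 1.46 (edgeR, adjusted p = 0.81) and AM day 3 against AM day 0 gave -1.09 ± 1.60 (edgeR, adjusted p = 1). At these counts (0 to 278 per library) a difference of several-fold was within the spread between libraries. Markers of other cells were also summed. The 8 of T and NK cells reached at most 12.4 CPM and the 5 of mast cells and basophils at most 0.309 CPM in any BM library. The 6 of dendritic cells summed to 59.5 to 142.5 CPM in BM day 1, against 13.9 to 46.5 CPM in AM day 1 and 97.1 to 252 CPM in AM day 0. At day 3 they gave 20.1 to 55.5 CPM in BM against 12.1 to 16.6 CPM in AM, and at day 7 the groups overlapped. The part of dendritic cells in the level of Il10 was not tested. B cell markers summed to 14.5 to 57.5 CPM in BM day 1, 61.7 to 218 CPM in BM day 3 and 9.99 to 144 CPM in BM day 7, against 149 to 184 CPM in AM day 0 and 2.38 to 6.51 CPM in AM day 7, and their part in the level of Il10 was not tested.

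Tnfrsf1a, at chr6:125349362-125362484 on the plus strand, stayed near 200 CPM in 6 of the 7 groups and was higher in BM day 1. It measured 379, 400.0, 380.2, 329 and 381 CPM in BM day 1, against 212, 202, 142 and 276 CPM in AM day 1. The BM libraries all lay above the AM libraries on that day, by 0.85 ± 0.19 on the log2 scale or 1.80-fold (edgeR, adjusted p = 0.0011). At day 3 the values were 95.6, 216, 186 and 175 CPM in BM, against 221, 186 and 217 CPM in AM, and at day 7 they were 196.5, 182 and 180.5 CPM in BM, against 234, 201, 229 and 227 CPM in AM. The direction at day 7 was downward with no overlap but small, -0.26 ± 0.21 (edgeR, adjusted p = 1). AM without LPS had 221, 202 and 257 CPM, and no later AM group was called against it.

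BM day 3 was below BM day 1 in every library, by -1.15 ± 0.19 or 2.23-fold (edgeR, adjusted p = 6.8e-05). The difference between BM and AM was also not the same on these days: the day 3 difference less the day 1 difference was -1.16 ± 0.28 (edgeR, adjusted p = 0.0087). That value includes BM day 1, which has its own prefix, so day and library set cannot be told apart in it. The lowest library, BM day 3 replicate 1 with 95.6 CPM, is the one with the fewest genes detected. It also held the highest sums of fibroblast and endothelium markers (27632 CPM) and of neutrophil markers (5369 CPM), and their part was not tested. Without BM day 3 replicate 1 and BM day 1 replicate 3 the fall was -0.95 (edgeR, adjusted p = 0.0002; 4.7e-10 to 0.0062 over the 36 alternatives).

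Tnfrsf1b, at chr4:145213463-145246870 on the minus strand, was the more abundant TNF receptor gene in every library and also stood highest in BM day 1. Its level was 1369, 1417, 1498, 1455 and 1262 CPM in BM day 1, against 747, 673, 728 and 421 CPM in AM day 1. At day 3 it was 488, 1091, 815 and 868 CPM in BM, against 830.1, 900.3 and 608.5 CPM in AM, with the AM range inside the BM range. At day 7 it was 728, 679 and 1008 CPM in BM, against 518, 506, 473 and 522 CPM in AM, and all BM libraries were higher. AM day 0 had 462, 699 and 591 CPM. BM exceeded AM at day 1 by 1.12 ± 0.19 or 2.18-fold (edgeR, adjusted p = 7.8e-05), and the day 7 difference of 0.67 ± 0.21 had an adjusted p of 0.15 in edgeR. Without BM day 3 replicate 1, which is outside that comparison, it was 0.67 with an adjusted p of 0.049 (0.0041 to 0.94 over the 36 alternatives).

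Within BM, Tnfrsf1b at day 3 was -0.78 ± 0.19 against day 1 (edgeR, adjusted p = 0.0053), a 1.72-fold fall without overlap. The day 3 difference between BM and AM less the day 1 difference was -1.06 ± 0.29 (edgeR, adjusted p = 0.019), again with the prefix of BM day 1 in it. That interaction of cell type and day was no longer called without AM day 3 replicate 1 (edgeR, adjusted p = 0.054) or replicate 2 (edgeR, adjusted p = 0.072), the highest of the 36 alternatives, which began at 0.0059. Within AM the mean was 505 ± 22.1 CPM at day 7, against 780 ± 152 CPM at day 3, and all 4 libraries of day 7 were lower than all 3 of day 3 (-0.63 ± 0.21, edgeR, adjusted p = 0.25).

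Per kilobase of exon, Tnfrsf1b exceeded Tnfrsf1a by 1.04 to 3.79 times over the 26 libraries. The median ratio per group was 2.45 in BM day 1 against 2.33 in AM day 1, 3.40 in BM day 3 against 2.55 in AM day 3, and 2.53 in BM day 7 against 1.53 in AM day 7. It was 1.56 in AM day 0. The BM ratios were 2.51, 2.53 and 3.79 at day 7, all above the AM ratios of 1.4 to 1.71, whereas at day 1 the BM range of 2.25 to 3.00 lay inside the AM range of 1.04 to 3.48. At day 3 the BM ratios of 2.98 to 3.46 overlapped the AM ratios of 1.90 to 3.29. BM day 3 replicate 1, the lowest of its group for both receptors, had a ratio of 3.46, close to the others of its group.

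Il10ra, at chr9:45253837-45269149 on the minus strand, encodes the chain that binds interleukin 10 and had a higher mean in BM than in AM on all 3 days. It measured 541, 593, 671, 416 and 549 CPM in BM day 1, against 170.0, 157, 116 and 189.5 CPM in AM day 1. At day 3 it was 233, 353, 433 and 297.5 CPM in BM, against 167, 195 and 136 CPM in AM. At day 7 it was 351, 365 and 178 CPM in BM, against 166, 177, 176 and 165 CPM in AM. At day 7, 15.5% of all genes lay higher in BM without overlap, and that share is not given here for days 1 and 3. For Il10ra, BM lay above AM without overlap on all 3 days, at day 7 by a narrow margin because replicate 3 of BM day 7 held 178 CPM. That library differs from replicates 1 and 2 of its group in its library number range and in its lower sum of alveolar macrophage markers, 3145 CPM against 14519 and 15311 CPM.

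The Il10ra difference was 1.81 ± 0.21 (log2) or 3.51-fold at day 1 (edgeR, adjusted p = 2.1e-07) and 0.99 ± 0.23 or 1.98-fold at day 3 (edgeR, adjusted p = 0.015). At day 7 it was 0.80 ± 0.22 or 1.74-fold (edgeR, adjusted p = 0.068), and 1.06 without BM day 7 replicate 3 (edgeR, adjusted p = 0.0067; 0.0067 to 0.58 over the 36 alternatives) or 0.80 without BM day 3 replicate 1 (edgeR, adjusted p = 0.031). The call at day 3 was lost without AM day 3 replicate 1 (edgeR, adjusted p = 0.069), AM day 3 replicate 3 (edgeR, adjusted p = 0.1) or BM day 3 replicate 3 (edgeR, adjusted p = 0.065), and with the 2 groups fitted alone (edgeR, adjusted p = 0.18, the highest of the 36 alternatives, which began at 5e-04). AM day 0 held 207, 174 and 181 CPM, and AM means stayed between 158 ± 31.1 CPM at day 1 and 188 ± 17.2 CPM at day 0. BM day 3 against BM day 1 was -0.75 ± 0.20 (edgeR, adjusted p = 0.009) with 1 library overlapping. Without BM day 1 replicate 3 and BM day 3 replicate 1 it was -0.53 (edgeR, adjusted p = 0.057, the highest of the 36 alternatives, which began at 0.00093). A pseudogene, Gm20612, overlaps Il10ra on the other strand, and no source used here says whether counting used strand.

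**Figure D2:**
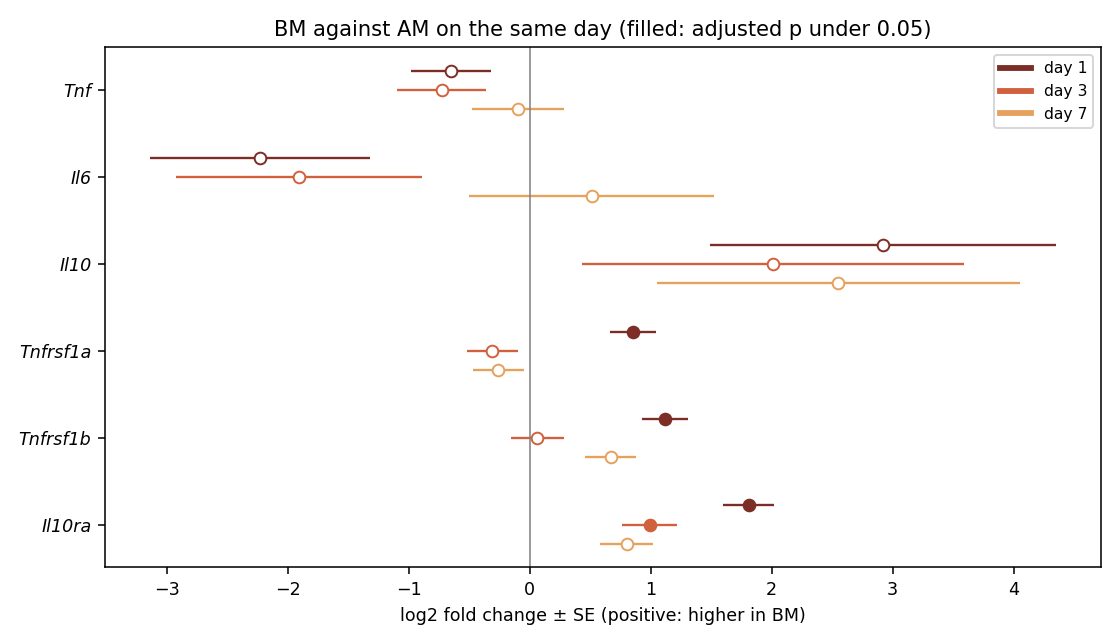
Log2 fold change of BM against AM on the same day for the 6 genes, with bars of 1 SE and filled points where the adjusted p of edgeR is under 0.05. Il10ra lies to the right on all 3 days (1.81, 0.99 and 0.80), the TNF receptor genes are filled at day 1 alone, and the wide bars of Il6 and Il10 show their spread between libraries.

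Set side by side, BM at day 1 carried more RNA of the 3 receptor genes than AM, with no ligand gene called. At day 1, 3 of the 6 genes were called, all higher in BM, where 29.0% of the 17143 tested genes were called in either direction and 15.2% were called higher. The median log2 fold change of the 6 was 0.99, against 0.06 over all genes. The libraries of BM day 1 and AM day 1 differ in prefix and in Y-linked level, so cell type and library set cannot be told apart in this comparison. In a model that also held the Y-linked level, these 3 genes were called, at 0.90 for Tnfrsf1a, 1.13 for Tnfrsf1b and 1.99 for Il10ra, and Il6 was called as well at -3.68 (edgeR, adjusted p = 0.0072; 0.0014 to 0.14 over the 36 alternatives). Neutrophil markers overlapped between the groups, at 677 to 1829 summed CPM in BM day 1 and 1051 to 2044 CPM in AM day 1. So did the sums of lung epithelium, T and NK cell and B cell markers. Those of fibroblasts and endothelium did not, at 274.7 to 451.4 CPM in BM day 1 against 59.3 to 113.8 CPM in AM day 1. Dendritic cell markers did not overlap either (59.5 to 142.5 CPM against 13.9 to 46.5 CPM), and the part of these cells was not tested.

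At day 3, 1 of the 6 genes was called, Il10ra, where 3.98% of all genes were called and 0.997% were called higher. The median of the 6 was -0.12, against -0.07 over all genes. At day 7 edgeR called 0 of the 6, where 1.77% of all genes were called, while 2 of the 6 (Tnfrsf1b and Il10ra) had an unadjusted p under 0.05 (7.98% of all genes) and DESeq2 called 1 (Il10ra, 0.77, adjusted p = 0.043; 0.0067 to 0.58 over the 36 alternatives) beside 3.52% of all genes. Day 7 is the comparison in which both groups share a prefix and a low Y-linked level, but not a library number range. All 4 AM day 7 libraries and BM day 7 replicate 3 lie in the range 7 to 24. BM day 7 replicates 1 and 2 lie in 26 to 34, so cell type and library number range are mixed in part. At day 7, 4 of the 6 genes lay higher in BM without overlap (Tnfrsf1b, Il6, Il10 and Il10ra) and Tnfrsf1a lay lower without overlap, where 15.5% and 14.2% of all genes did so. Tnf alone overlapped, with 190.2 ± 27.3 CPM in BM day 7 and 204 ± 11.5 CPM in AM day 7 (SD). With these 2 groups fitted alone, 4 of the 6 were called higher in BM, at 0.67 for Tnfrsf1b (edgeR, adjusted p = 0.0041), 0.80 for Il10ra (edgeR, adjusted p = 0.045), 2.60 for Il10 (edgeR, adjusted p = 0.011) and 0.50 for Il6 (edgeR, adjusted p = 0.01), beside 20.4% of 14454 genes tested.

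**Figure D3:**
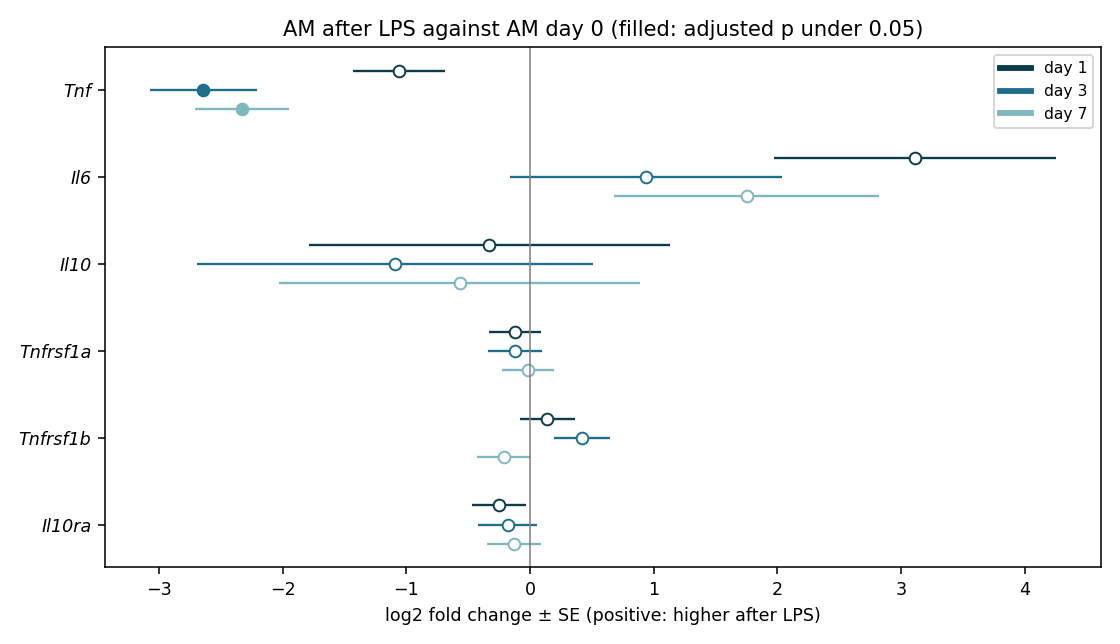
Log2 fold change of AM at days 1, 3 and 7 after LPS against AM day 0, with bars of 1 SE and filled points where the adjusted p of edgeR is under 0.05. Tnf is the single gene with filled points (-2.64 at day 3 and -2.33 at day 7), and the 3 receptor genes lie within 0.42 of 0.

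In AM the Tnf gene was lower after LPS than in AM day 0, and no receptor gene was called. LPS and library set cannot be told apart in these comparisons. Against AM day 0, edgeR called 0 of the 6 genes at day 1, where 6.28% of all genes were called. There 2 of the 6 (Tnf and Il6) had an unadjusted p under 0.05 (20.9% of all genes), and DESeq2 called 1, Il6 (3.15, adjusted p = 0.011; 0.0032 to 0.34 over the 36 alternatives), where it called 2051 of all 17143 genes. Tnf was the 1 gene called at AM day 3, where 2.51% of all genes were called and 0.723% were called lower, and again at AM day 7, where 0.677% were called and 0.268% were called lower. The log2 fold changes of the receptor genes were -0.18 to 0.42 at AM day 3 and -0.21 to -0.02 at AM day 7. AM day 7 has a low Y-linked level and AM day 0 a high one: in a model that also held that level, Tnf was -2.64 at AM day 7 (edgeR, adjusted p = 0.052), the highest of the 36 alternatives, which began at 7.4e-07.

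Between successive days edgeR called 0 of the 6 for AM day 3 against AM day 1, where 0.834% of all genes were called, and 0 of the 6 for AM day 7 against AM day 3, where 1.59% were called. At an unadjusted p under 0.05 there was 1 gene in each, Tnf in the first (12.3% of all genes) and Tnfrsf1b in the second (8.03%). DESeq2 called Tnf in the first (-1.63, adjusted p = 0.0014; 0.0014 to 0.3 over the 36 alternatives), beside 4.92% of all genes, and 0 of the 6 in the second, beside 3.73%. In BM, 4 of the 6 were called for day 3 against day 1 (Tnf and all 3 receptor genes), all lower, where 25.9% of all genes were called and 15.2% were called lower. The median of the 6 there was -1.41, against -0.05 over all genes. BM day 1 has its own prefix, so day and library set cannot be told apart here or in the interaction of day 3 over day 1. For BM day 7 against BM day 3 edgeR called 0 of the 6, where 3.98% of all genes were called, with Tnf and Il6 at an unadjusted p under 0.05 (21.2% of all genes) and Il6 called by DESeq2 (3.18, adjusted p = 0.014; 0.00072 to 0.69 over the 36 alternatives), beside 8.73% of all genes. The interaction of cell type and day, day 3 over day 1, was called for 2 of the 6, the TNF receptor genes, both negative, where 11.5% of all genes were called and 8.02% were called negative. For Il10ra it was -0.82 ± 0.30 (edgeR, adjusted p = 0.074), and it was called without BM day 1 replicate 4 (-0.94, edgeR, adjusted p = 0.039) or BM day 3 replicate 3 (-0.99, edgeR, adjusted p = 0.038; 0.028 to 0.25 over the 36 alternatives). For day 7 over day 3 it was called for 0 of the 6 by edgeR and by DESeq2, where 0.362% were called, and 0 members had an unadjusted p under 0.05 (11.6% of all genes). Without BM day 3 replicate 2 the value of Il6 there was 5.32 (edgeR, adjusted p = 0.029; 0.029 to 0.91 over the 36 alternatives), against 2.41 ± 1.43 with it.

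**Figure D4:**
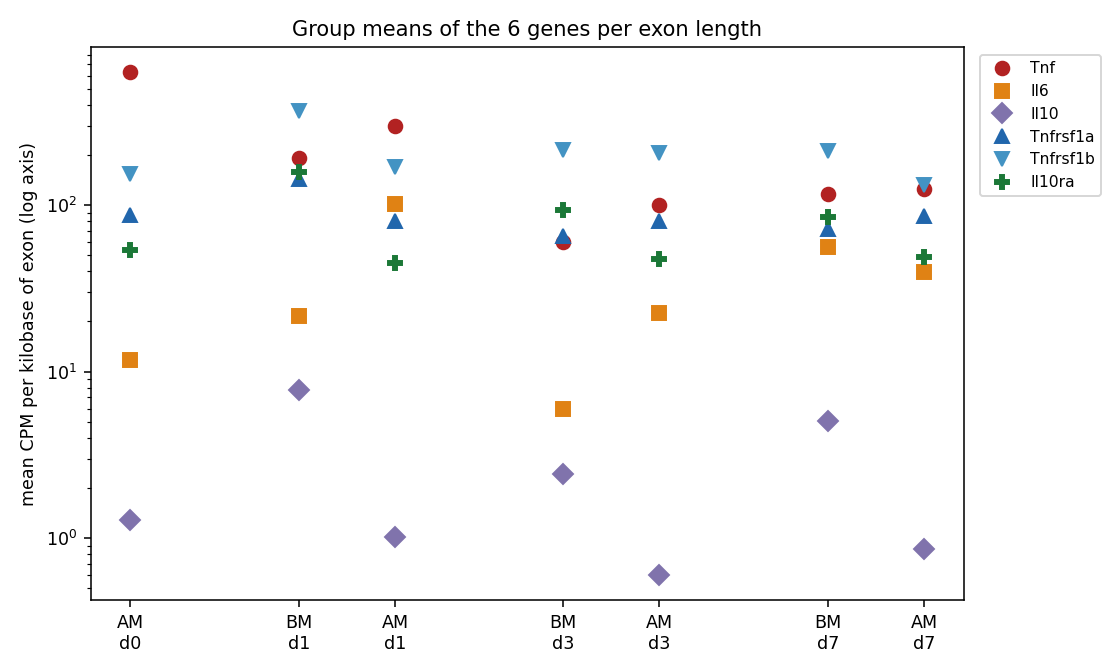
Mean CPM per kilobase of exon for the 6 genes in each group on a log axis, with AM day 0 at the left and BM left of AM on each later day. Tnf leads in AM day 0 (626) and AM day 1 (299.6), Tnfrsf1b leads in the other 5 groups, and Il10 is lowest in all 7.

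Per kilobase of exon, which allows levels to be compared between genes, Tnf had a mean of 626 CPM in AM day 0 and 299.6 CPM in AM day 1 and led both groups. In the other 5 groups Tnfrsf1b led, with 367 CPM per kilobase in BM day 1, 214 in BM day 3 against 204 in AM day 3, and 211 in BM day 7 against 132 in AM day 7. Il10ra had 158 CPM per kilobase in BM day 1 against 45.2 in AM day 1, where it lay above Il6 in the BM group (21.6) and below it in the AM group (101). Il6 amounted to a median share of 0.012 of Tnf per kilobase in AM day 0, 0.348 in AM day 1, 0.261 in AM day 3 and 0.316 in AM day 7. In BM the same ratio was 0.143 at day 1, 0.026 at day 3 and 0.417 at day 7. Il10 did not exceed 0.109 of Tnf per kilobase in any library.

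Of the genes through which these receptors signal, more were higher than lower in BM at day 1, in a comparison that called 29.0% of all genes, 2600 higher and 2369 lower. BM day 1 and AM day 1 differ in prefix and in Y-linked level. Cell type and library set thus cannot be told apart for any of the lists at day 1. Of 25 genes of TNF receptor signalling, 8 were higher in BM day 1 than in AM day 1 and 0 lower, with a median log2 fold change of 0.44 (0.06 over all genes), and their called share is close to that of all genes. The largest were Traf1, an adaptor of receptor 2 (1.69 ± 0.32, edgeR, adjusted p = 0.00019), the ubiquitin ligase gene Birc3 (1.31 ± 0.24, edgeR, adjusted p = 0.00017) and Ikbkb, a kinase of the NF-kB pathway (1.19 ± 0.23, edgeR, adjusted p = 0.00025). Tnfaip3, the most abundant of the list and a brake on NF-kB, was 0.56 ± 0.19 (edgeR, adjusted p = 0.029). Traf1 held 501, 589, 481, 422 and 499.8 CPM in BM day 1, against 189, 219, 147 and 61.6 CPM in AM day 1.

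Of 12 genes of interleukin 6 receptor signalling, 7 were higher in BM day 1 and 0 lower, with a median of 0.85. Il6ra, the chain that binds interleukin 6, held 297, 201, 295, 219.8 and 317 CPM in BM day 1, against 55.4, 57.0, 87.3 and 64.1 CPM in AM day 1. These ranges did not overlap, and the difference was 2.01 ± 0.21 (edgeR, adjusted p = 3.6e-08), opposite in direction to Il6 itself. Stat3 was 1.27 ± 0.21 (edgeR, adjusted p = 5e-05), the kinase gene Jak1 was 1.21 ± 0.16 (edgeR, adjusted p = 2.5e-06), and Cebpb, the most abundant of the list, was 0.88 ± 0.13 (edgeR, adjusted p = 1.2e-05).

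Of 13 genes of the interleukin 10 receptor and its targets, 9 were higher and 1 lower in BM day 1, with a median of 0.80. The list shares Jak1, Tyk2, Stat3 and Socs3 with the one before. Etv3, a transcriptional repressor, was 2.02 ± 0.31 (edgeR, adjusted p = 1.9e-05) and Bcl3, an atypical inhibitor of NF-kB, was 1.33 ± 0.32 (edgeR, adjusted p = 0.0026). Hmox1, which encodes haem oxygenase 1, was -1.29 ± 0.29 (edgeR, adjusted p = 0.0018), and the most abundant, Zfp36, whose product destabilises Tnf mRNA, was 0.69 ± 0.19 (edgeR, adjusted p = 0.0092). Il10rb, the partner chain of Il10ra, was among the 3 that were not called.

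Other ligands of the 3 families gave 1 gene higher and 2 lower in BM day 1 among 17 tested of 21. Lif, a ligand of the interleukin 6 family, was 2.58 ± 0.82 (edgeR, adjusted p = 0.022) and Tnfsf12 was -1.82 ± 0.66 (edgeR, adjusted p = 0.04), while Osm, the most abundant, was 1.12 ± 0.45 (edgeR, adjusted p = 0.062). Other receptors gave 3 higher and 5 lower among 17 tested of 19. Lifr, the receptor chain for Lif, held 133, 62.0, 128, 239 and 305 CPM in BM day 1, against 2.85, 0, 13.9 and 2.39 CPM in AM day 1, a difference of 5.20 ± 1.05 (edgeR, adjusted p = 0.00063). Il20rb was -3.74 ± 1.34 (edgeR, adjusted p = 0.037) and Il11ra1 was -3.24 ± 1.06 (edgeR, adjusted p = 0.028), while Tnfrsf21, the most abundant, was 1.35 ± 0.72 (edgeR, adjusted p = 0.16).

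**Figure D5:**
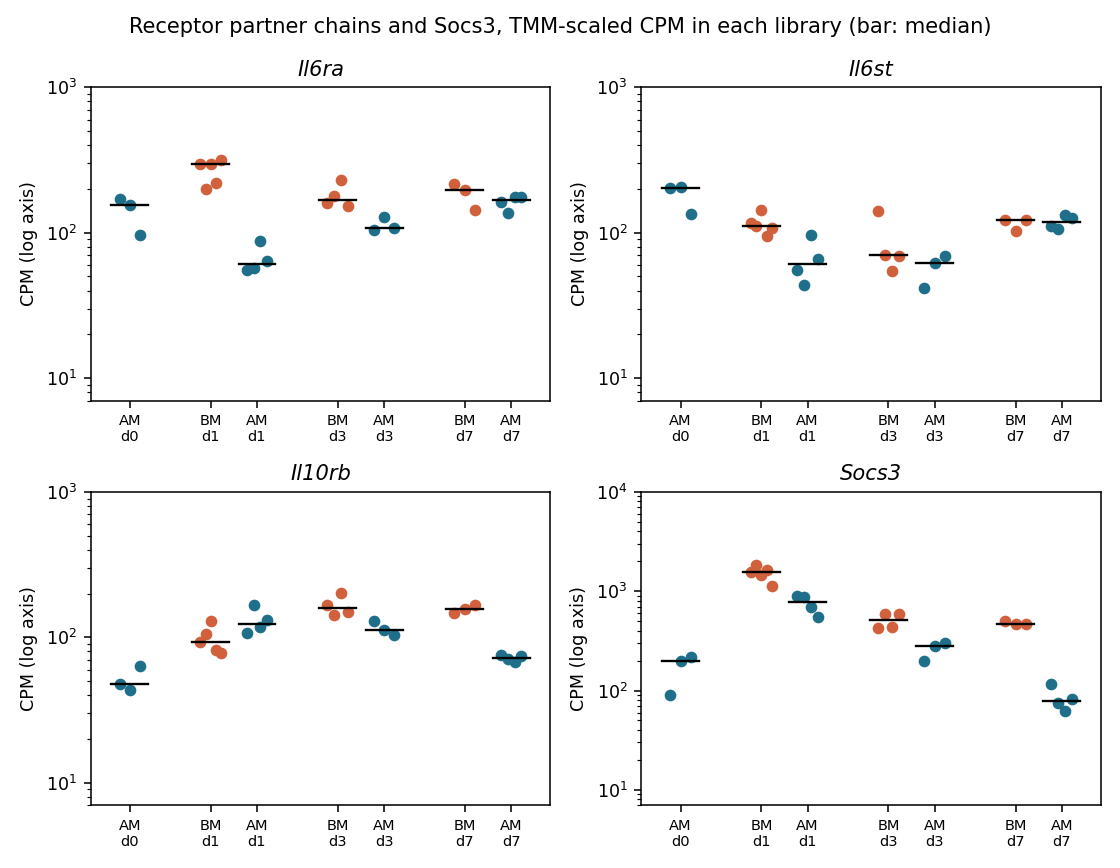
CPM of the partner chains Il6ra, Il6st and Il10rb and of Socs3 in each library on log axes, in the same group order, with group medians as bars. Il6ra and Socs3 lie higher in BM day 1 than in AM day 1 without overlap, and Socs3 and Il10rb lie higher in BM day 7 than in AM day 7 without overlap.

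At day 3 the calls between BM and AM were spread thinly over the lists, beside 3.98% of all genes. In TNF receptor signalling, 2 of 25 were higher and 0 lower: Sharpin, a subunit of the linear ubiquitin ligase (1.02 ± 0.27, edgeR, adjusted p = 0.033), and Tab2 (0.81 ± 0.20, edgeR, adjusted p = 0.021). In the interleukin 6 list 2 of 12 were higher and 1 lower, and in the interleukin 10 list 2 of 13 were higher. Jak1 (0.75 ± 0.18, edgeR, adjusted p = 0.021) and Socs3, a feedback inhibitor of interleukin 6 receptor signalling (0.98 ± 0.26, edgeR, adjusted p = 0.029), were the higher genes of both lists. Cebpb was the lower one (-0.54 ± 0.15, edgeR, adjusted p = 0.036). None of the 17 other ligands and none of the 17 other receptors tested was called at day 3.

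At day 7 the called genes were Socs3, Il10rb, Traf1 and Il12a. Socs3 held 504, 473 and 465.5 CPM in BM, against 116, 74.5, 62.8 and 82.0 CPM in AM, a difference larger than at day 3 by 1.54 ± 0.35 on the log2 scale (edgeR, adjusted p = 0.048). Il10rb held 147, 155 and 166 CPM in BM, against 75.7, 70.4, 67.9 and 74.0 CPM in AM, or 1.12 ± 0.20 (edgeR, adjusted p = 0.0011). Traf1 held 77.2, 70.1 and 69.5 CPM in BM day 7, against 16.9, 19.4, 16.3 and 16.6 CPM in AM day 7. Il12a held 1.24, 2.2 and 0.206 CPM in BM day 7, from 24, 54 and 2 counts, against 0 in all 4 AM day 7 libraries. None of these 4 genes overlapped between the groups, where 15.5% of all genes lay higher in BM without overlap. For Il12a the gap rests on the 2 counts of BM day 7 replicate 3, fewer than the limit of 3 counts, so it is within counting error. Calls at day 7 numbered 1 of 25 in TNF receptor signalling, 1 of 12 in the interleukin 6 list, 2 of 13 in the interleukin 10 list, 1 of 17 other ligands and 0 of 17 other receptors, all higher in BM, beside 1.77% of all genes.

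In AM at day 1 after LPS, the feedback inhibitor Socs3, the adaptor Traf1 and the second interleukin 10 receptor chain rose. Socs3 held 897.5, 876, 689.9 and 549 CPM in AM day 1, against 89.4 to 219 CPM in the 3 AM day 0 libraries, a rise of 2.15 ± 0.27 (edgeR, adjusted p = 3.9e-06). Traf1 rose by 1.75 ± 0.36 (edgeR, adjusted p = 0.0022) and Il10rb by 1.34 ± 0.21 (edgeR, adjusted p = 8e-05). Birc3 (0.96 ± 0.27, edgeR, adjusted p = 0.032), Ripk3, a kinase of necroptosis (1.36 ± 0.41, edgeR, adjusted p = 0.046), and Hmox1 (1.31 ± 0.35, edgeR, adjusted p = 0.02) also rose. Il6st, the signalling chain shared by the interleukin 6 family, fell: it was 55.3, 43.7, 96.1 and 66.0 CPM in AM day 1, against 204.5, 207 and 134.5 CPM in AM day 0 (-1.48 ± 0.28, edgeR, adjusted p = 0.00088). Zfp36, the most abundant of its list, fell by 1.11 on the log2 scale (SE 0.22, edgeR, adjusted p = 0.0012). In all, 4 of 25 genes rose and 0 fell in TNF receptor signalling, 3 rose and 2 fell of 12 in the interleukin 6 list, and 3 rose and 1 fell of 13 in the interleukin 10 list, beside 6.28% of all genes called. The sums of neutrophil and monocyte markers were also higher in AM day 1 (1051 to 2044 and 782 to 1352 CPM) than in AM day 0 (75.7 to 94.4 and 175 to 236 CPM), and their part in these changes was not tested. The dissociation and stress list was lower, at 4847 to 5459 CPM in AM day 1 against 8525 to 15967 CPM in AM day 0, and its part was not tested. AM day 0 also differs in prefix and depth, so LPS and library set cannot be told apart in these changes.

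At AM day 3, Il10rb was higher than in AM day 0 (1.16 ± 0.22, edgeR, adjusted p = 0.0013), while Il6st (-1.66 ± 0.31, edgeR, adjusted p = 0.0012), Zfp36 (-1.34 ± 0.24, edgeR, adjusted p = 0.00062) and Tnfaip3 (-1.35 ± 0.23, edgeR, adjusted p = 0.00051) were lower. At AM day 7 Tnfaip3 was the 1 gene of the 5 lists that was called (-1.11 ± 0.21, edgeR, adjusted p = 0.006), with 585, 700.0, 624 and 653 CPM, against 1699, 1217 and 1245 CPM in AM day 0. Tnf and Tnfaip3 were thus both lower than AM day 0 at days 3 and 7. These comparisons with AM day 0 carry the same difference in prefix and depth. Il12a, which encodes a subunit of interleukins 12 and 35 and belongs to the other ligands, was 17.3, 16.2, 34.8 and 2.54 CPM in AM day 1 and 5.13, 5.54 and 7.38 CPM in AM day 3, against 0.0376, 0 and 0 CPM in AM day 0, and it had 0 counts in all 4 AM day 7 libraries. It was called higher at AM day 1 and AM day 3 and lower at AM day 7 than at AM day 3.

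From AM day 1 to AM day 3, 3 of 25 genes of TNF receptor signalling fell and 0 rose, beside 0.834% of all genes called. They were Traf1 (-1.53 ± 0.36, edgeR, adjusted p = 0.037), Cflar, an inhibitor of caspase 8 (-1.03 ± 0.25, edgeR, adjusted p = 0.04), and Tnfaip3 (-0.90 ± 0.22, edgeR, adjusted p = 0.046). Socs3 fell as well (-1.54 ± 0.26, edgeR, adjusted p = 0.0023). From AM day 3 to AM day 7, Socs3 (-1.63 ± 0.25, edgeR, adjusted p = 0.00016), Traf1 (-1.62 ± 0.35, edgeR, adjusted p = 0.0084) and Jak2 (-1.09 ± 0.26, edgeR, adjusted p = 0.027) fell, and Zfp36 (0.98 ± 0.22, edgeR, adjusted p = 0.015) and Nfil3, a target of interleukin 10 signalling (0.82 ± 0.21, edgeR, adjusted p = 0.041), rose. No other receptor was called in either comparison. AM day 7 against AM day 3 called 1.59% of all genes. The dissociation and stress list summed to 3500 to 5045 CPM in AM day 3 and to 6475 to 8485 CPM in AM day 7, and its part in these changes was not tested.

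In BM more genes of the 3 signalling lists fell than rose between day 1 and day 3, as over all genes, of which 2614 fell and 1818 rose (25.9% called). In TNF receptor signalling 1 gene rose and 6 fell of 25, in the interleukin 6 list 1 rose and 6 fell of 12, and in the interleukin 10 list 2 rose and 10 fell of 13, with medians of -0.20, -0.48 and -0.91 against -0.05 over all genes. Traf1 was -2.49 ± 0.33 (edgeR, adjusted p = 4e-06), Tnfaip3 was -1.88 ± 0.20 (edgeR, adjusted p = 1.8e-07) and Cflar was -1.55 ± 0.22 (edgeR, adjusted p = 1.2e-05). Cebpb was -1.60 ± 0.14 (edgeR, adjusted p = 1.4e-08), Socs3 was -1.58 ± 0.23 (edgeR, adjusted p = 1.5e-05) and Nfil3 was -1.51 ± 0.19 (edgeR, adjusted p = 2e-06). Among the other ligands 2 rose and 4 fell of 17, led by Lif (-2.85 ± 0.83, edgeR, adjusted p = 0.017), Ltb (-2.67 ± 0.97, edgeR, adjusted p = 0.044) and Tnfsf12 (2.29 ± 0.67, edgeR, adjusted p = 0.016). The called share of the TNF list is close to that of all genes. BM day 1 has its own prefix, so day and library set cannot be told apart in these changes. Monocyte markers summed to 11182 to 29563 CPM in BM day 3, against 2911 to 4239 CPM in BM day 1, and their part in these changes was not tested. The dissociation and stress list summed to 2346 to 5743 CPM in BM day 3, against 6288 to 9999 CPM in BM day 1, and its part was not tested. Among the other receptors 1 rose and 2 fell of 17, and Lifr was -2.71 ± 0.92 (edgeR, adjusted p = 0.035).

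From BM day 3 to BM day 7, Osm, a ligand of the interleukin 6 family, rose by 2.45 ± 0.50 (edgeR, adjusted p = 0.0061), with 645, 641 and 458 CPM at day 7 against 25.7, 187, 172.5 and 38.8 CPM at day 3. Tnfaip3 rose by 1.19 ± 0.21 (edgeR, adjusted p = 0.0015), Nfil3 by 1.02 ± 0.21 (edgeR, adjusted p = 0.0043), Zfp36 by 0.91 ± 0.22 (edgeR, adjusted p = 0.014) and Cebpb by 0.65 ± 0.15 (edgeR, adjusted p = 0.01). Ripk3 (-1.56 ± 0.41, edgeR, adjusted p = 0.03), Hmox1 (-1.29 ± 0.35, edgeR, adjusted p = 0.033) and Sharpin (-1.11 ± 0.27, edgeR, adjusted p = 0.018) fell. Of all genes, 3.98% were called here. No BM day 3 library exceeded 5742.5 CPM for the dissociation and stress genes, whereas every BM day 7 library held at least 9131 CPM. Whether they had a part in these rises and falls was not tested. BM day 3 replicate 1 carried 27632 CPM of fibroblast and endothelium markers, and the part of those cells was not tested either.

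The difference between BM and AM was not the same at day 3 as at day 1 for 8 genes of the 5 lists, beside the TNF receptor genes, in a comparison that called 11.5% of all genes. It became smaller or more negative for Osm (-2.35 ± 0.66, edgeR, adjusted p = 0.025), Cebpb (-1.42 ± 0.20, edgeR, adjusted p = 5.5e-05), Il6ra (-1.34 ± 0.30, edgeR, adjusted p = 0.0048), Ikbkb (-1.34 ± 0.34, edgeR, adjusted p = 0.012), Nfil3 (-1.21 ± 0.28, edgeR, adjusted p = 0.0063) and Tnfaip3 (-0.98 ± 0.29, edgeR, adjusted p = 0.027). It became larger for Hmox1 (1.61 ± 0.45, edgeR, adjusted p = 0.023) and Il10rb (0.94 ± 0.27, edgeR, adjusted p = 0.024). The chains of the interleukin 10 receptor had values of opposite sign, -0.82 for Il10ra, which was not called, and 0.94 for Il10rb. All these values include BM day 1, which has its own prefix, so day and library set cannot be told apart in them.

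Across the 26 libraries the genes most like each member were found by Pearson r of log2 CPM over 9603 or 9604 genes, as a description in which libraries share group, depth and prefix. For Tnf they were Plek (0.867), Tnfaip2 (0.864) and Maff (0.844). For Tnfrsf1a they were Gfpt1 (0.888), Nod2 (0.882) and Themis2 (0.881), and for Tnfrsf1b they were Zfc3h1 (0.897), Sema4d (0.886) and Myo1c (0.882). For Il6 they were Pus7 and Aqp9 (0.907 each) and Hccs (0.895). For Il10 they were Map3k9 and Cass4 (0.823 each) and Adcy9 (0.812), and for Il10ra they were Jarid2 (0.924), Srgap2 (0.916) and Dnah12 (0.915). The genes named for Tnfrsf1a, Tnfrsf1b, Il10 and Il10ra had their highest group mean in BM day 1, as these members do. That follows largely from the choice by r and is not a separate result. Among the members themselves the highest r was 0.727, between Tnfrsf1b and Il10ra, and the next was 0.692, between Il10 and Il10ra. Tnf and Il6 had an r of 0.436, and Il6 and Il10ra one of -0.281.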

How the data were processed

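Bulk RNA of mouse lung macrophages was sequenced as stranded poly(A) libraries, per the labels' protocols. The authors deposited 1 table of raw read counts per Ensembl gene, 1 column for each of the 26 libraries. Per the submitters' processing notes the tools were FastQC 0.11.9, Trimmomatic 0.39, HISAT2 2.1.0 and featureCounts 2.0.0 on GRCm38; their settings, the annotation release and the strand setting are not given in the sources used here. If strand was not used, reads of overlapping antisense genes would be added to a gene.

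Groups follow the sample titles. Symbols and exon lengths came from GENCODE M21, which matched 55227 of 55487 identifiers. The edgeR (4.0.16, R 4.3.3) quasi-likelihood F test with robust dispersion was fitted once to all 7 groups after TMM scaling, for the 17143 genes kept by filterByExpr with a minimum count of 10. It gave 12 comparisons, each adjusted by the Benjamini-Hochberg method over all 17143 genes, and a gene is called where the adjusted p is under 0.05. SE is the absolute log2 fold change divided by the square root of F. Alternatives, 36 for each result, were DESeq2 (1.42.0) as a test and for scaling, other scaling and filters, a replicate block, a covariate, each replicate left out, and fits to the compared groups alone. The steps were tested on simulated data. CPM of a library is exact only to counting error, which matters for Il10.

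All 6 genes are named, with folds where called or where the absolute log2 fold change is at least 1. From each list up to 3 called genes with the largest change and a mean of at least 5 CPM are named, with the most abundant. The other genes named from the lists were chosen after their values were seen. The members, the lists and the tests were chosen with earlier results of these data known. The result of 1 further gene that this rule would name is not reported here.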

Additional observations from a re-analysis of the deposited data

Results flagged for a closer look

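Il6 in BM day 3 replicate 2 was 52.5 CPM, against 0.165, 0.0855 and 5.53 CPM in the other 3 libraries of the group, and its gap to the next library took up most of the range of the group. Of 24 groups of 4 or 5 libraries examined in this way, 1 stood out, and chance gives about 1 in 20.

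The difference between BM and AM in Tnfrsf1a was not the same on 2 days: the day 3 difference less the day 1 difference was -1.16 ± 0.28 (log2 ± SE, edgeR, adjusted p = 0.0087). For Tnfrsf1b the same quantity was -1.06 ± 0.29 (edgeR, adjusted p = 0.019). Both genes were higher in BM at day 1, and at day 3 the values were -0.31 ± 0.21 for Tnfrsf1a and 0.06 ± 0.22 for Tnfrsf1b (edgeR, adjusted p = 0.45 and 0.98). BM day 1 has a library prefix of its own, so day and library set cannot be told apart in these 2 results.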

How the results depend on the processing

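Of 12 counts of called members, those below moved by more than 1.5 times. With DESeq2 as the test the count was 5 for BM day 1 against AM day 1 (3 in edgeR), and 1 for BM day 7 against AM day 7, AM day 1 against AM day 0, AM day 3 against AM day 1 and BM day 7 against BM day 3 (0 in edgeR for each). DESeq2 called 33.6, 3.52, 12, 4.92 and 8.73% of all genes in these 5 comparisons. With no filter it was 1 for BM day 7 against AM day 7. With DESeq2 size factors or the stricter filter it was 1 for AM day 3 against AM day 1. With the Y-linked level in the model it was 0 for AM day 7 against AM day 0 (1 without), and Il6 in that comparison turned round to -1.01 (edgeR, adjusted p = 0.9). Without BM day 1 replicate 3 and BM day 3 replicate 1 together it was 2 for BM day 7 against AM day 7, 2 for AM day 1 against AM day 0 and 1 for AM day 3 against AM day 1. Fitted to the compared groups alone, it was 0 for BM day 3 against AM day 3, 4 for BM day 7 against AM day 7, and 2 for AM day 1 against AM day 0, AM day 7 against AM day 0, AM day 3 against AM day 1 and AM day 7 against AM day 3 (beside 0.0472, 20.4, 13.7, 16.9, 1.53 and 16.6% of all genes). Over all genes such fits called 6 for BM day 3 against AM day 3 (683 in the joint fit), 2948 for BM day 7 against AM day 7 (303) and 1117 for BM day 3 against BM day 1 (4432). The causes were not tested.

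With 1 replicate left out, the count ran from 0 to 2 for BM day 3 against AM day 3, BM day 7 against AM day 7 and BM day 7 against BM day 3. It ran from 0 to 1 for AM day 1 against AM day 0 and AM day 3 against AM day 1, and for the interactions from 1 to 3 (day 3 over day 1) and 0 to 1 (day 7 over day 3). Libraries of different groups with the same replicate number in the titles had correlations of -0.047 to 0.069 over 32 pairs, so these numbers gave no sign of pairing. The descriptions number some libraries otherwise, among them all of BM day 1 and BM day 7. Pairing by the numbers of the descriptions was not tested, and the replicate block uses those of the titles. With the replicate block, Tnf was called for AM day 3 against AM day 1 (-1.77, edgeR, adjusted p = 0.02), so the count of members was 1, and no other count of members moved by more than 1.5 times. In every alternative the calls of Tnfrsf1a, Tnfrsf1b and Il10ra at day 1 and of Tnf at AM day 3 against AM day 0 held. Depth limits Il10, with 0 to 278 counts per library, and Il6 in BM day 3.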
